A study of Mus musculus with 6 samples.

Results

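The tripartite motif (TRIM) genes were followed through 6 RNA-sequencing libraries of mouse regulatory T (Treg) cells, a CD4 lineage that depends on Foxp3 and holds immune responses in check. Members were all gene symbols made of "Trim", a number and at most 1 further letter. There were 65 such symbols among the 23992 in the deposited count table, and 37 of them had enough reads to be tested. The libraries form 2 groups of 3. In the group labelled WT, male CD45.2 mice carried the Foxp3YFP-Cre allele, and in the group labelled KO they carried the same allele together with Crlf2fl/fl. Both groups therefore express Cre from the Foxp3 locus. By this design the deletion of Crlf2, which encodes the TSLP-specific receptor subunit, is directed at cells that express Foxp3. Whether other cells also lost Crlf2 was not measured here. By the labels, cells were taken from lymph nodes and spleen, pooled, and sorted as live CD4+YFP+, while the name of the table refers to lung. Lung epithelial markers took 0.258% to 7.64% of the counts over the 6 libraries. Which tissue the cells came from was not tested. The sources used here give no age. Titles and genotype tags set the groups, although the strain named in each description is the opposite one. In KO replicates 1 to 3 the reads on Crlf2 numbered 93, 84 and 68, and in WT replicates 1 to 3 they numbered 694, 213 and 1111, which goes with the titles.

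TRIM proteins share an amino-terminal module of a RING finger, B-box domains and a coiled coil, and most act as E3 ubiquitin ligases. The carboxy-terminal domain differs between subfamilies and sets what each protein binds. A PRYSPRY domain is common among the antiviral members, a PHD finger with a bromodomain among the chromatin regulators, and NHL repeats in another branch. Several members are induced by interferons and tune the RIG-I, MDA5, Toll-like receptor and STING pathways, while TRIM28 silences endogenous retroviruses and has been studied in T cells and Treg cells.

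Library totals ran from 1439736 counts in WT replicate 2 to 18352401 counts in KO replicate 3. A count of 3 was taken as an approximate upper limit where 0 was counted. It equals 0.157 to 0.401 CPM (counts scaled to a common library size) in 5 libraries and 2.05 CPM in WT replicate 2. Such limits cover counting error only. Erythroid markers took 14.5% of the counts in WT replicate 3 and 0.172% to 0.687% in the other 5 libraries, with near-identical globin genes each counted. The Treg markers (8 genes, including Foxp3, Il2ra and Ctla4) took 0.376%, 0.392% and 0.193% in WT replicates 1 to 3 and 0.397% to 0.398% in KO. The 13 pan-T cell genes took 0.668%, 0.742% and 0.427% in WT replicates 1 to 3 and 0.767% to 0.870% in KO. For both lists every WT library thus lay below every KO library. Of the pan-T cell genes 12 had positive log2 fold changes (median 0.22), and edgeR called none. Lung epithelial markers took 1.74% to 7.64% in WT and 0.258% to 2.01% in KO. Macrophage and monocyte markers took 0.276% to 0.296% in KO. In WT replicates 1 to 3 they took 0.0529%, 0.0977% and 0.740%. Without WT replicate 3, edgeR called 4 of the 11 tested markers of this list higher in KO, against 242 of 12932 genes. In bulk RNA, fewer cells of a type and less RNA per cell cannot be told apart.

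No TRIM gene passed the test of KO against WT, and the 8 members lower in KO at an unadjusted p under 0.05 were all from the lists with antiviral or innate signalling roles. Of the 37 tested members, edgeR called 0 at an adjusted p under 0.05, against 1.74% of 12720 genes in either direction, 0.983% called lower and 0.755% called higher. DESeq2 called 5 members lower, against 3.9% of all genes, and limma-voom called 1 lower, against 1.38%. At an unadjusted p under 0.05 edgeR had 8 members lower in KO (21.6% of those tested, 9.13% of all genes) and 1 higher (2.70%, 6.74% of all genes). Together these are 9 members, against 15.9% of all genes. Groups did not overlap in 12 members, against 22% of all genes. In 8 of them every KO library lay below every WT library (21.6%, against 11.5% of all tested genes), and in 4 every KO library lay above (10.8%, against 10.4%). The median log2 fold change of KO against WT was -0.22 over the 37 members and -0.04 over all tested genes. With limma-voom the members' median was 0.01. The summed level of all TRIM symbols was 1351, 1516 and 1353 CPM in KO replicates 1 to 3, and 1713, 1676 and 1345 CPM across WT replicates 1 to 3, so the groups overlapped.

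**Figure D1:**
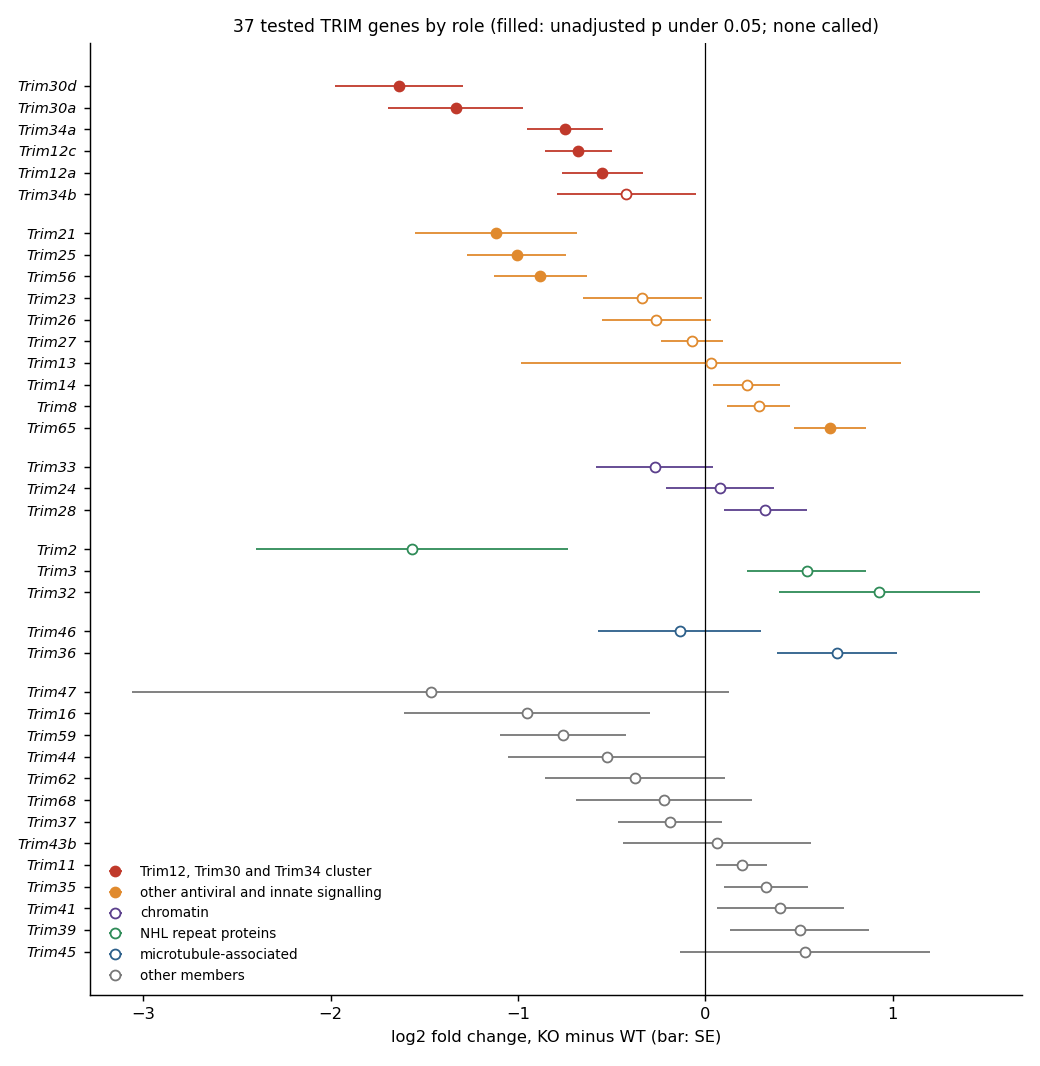
Log2 fold change of KO against WT (x axis, points with SE bars) for the 37 tested TRIM genes, grouped by role and ordered within each role; filled points have an unadjusted edgeR p under 0.05. All 6 tested genes of the Trim12, Trim30 and Trim34 cluster lie left of 0, while the other roles hold points on both sides.

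Members of the Trim12, Trim30 and Trim34 cluster had lower values in KO, none of them past the adjusted threshold. These genes, which include the mouse relatives of the human retroviral restriction factor TRIM5, lie on chromosome 7 between 104218793 and 104507849 (GRCm38, the assembly also called mm10). The list has 8 members in the table. Trim6 had no reads, Trim30b had 28 in all libraries together, and the other 6 were tested. All 6 had negative log2 fold changes (median -0.71), also under each of the 17 alternative settings. In 5 of them every KO library lay below every WT library, against 11.5% of all tested genes. The settings reuse the same libraries and the copies share sequence, as given below, so these are not independent observations.

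Trim30d (chromosome 7, 104470014 to 104507849, minus strand, protein coding) had the smallest p of the family. It was at 10.03, 14.4 and 7.10 CPM in KO replicates 1 to 3, and at 35.2, 40.4 and 23.4 CPM across WT replicates 1 to 3. Every KO library was below every WT library, with means of 10.5 ± 3.68 CPM in the KO group and 33.0 ± 8.72 CPM in the WT group (SD, n = 3 per group). The log2 fold change was -1.64 (with SE 0.34 and edgeR's adjusted p = 0.0578), just outside the threshold. DESeq2 gave an adjusted p = 0.000818 and limma-voom an adjusted p = 0.0478 for Trim30d. In the edgeR fit without WT replicate 3, the library rich in erythroid reads, its log2 fold change was -1.84 (adjusted p = 0.0208). When any 1 of the other 5 libraries was left out, Trim30d was not called, with adjusted p from 0.0774 to 0.267.

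Trim30a (104409025 to 104465193, minus strand), which encodes a feedback inhibitor of Toll-like receptor signalling that acts on TAB2 and TAB3, was at 35.2, 69.9 and 28.7 CPM in KO replicates 1 to 3. In WT replicates 1 to 3 it was at 99.0, 152 and 89.6 CPM. KO replicate 2 was the highest KO library for Trim30a, as it was for Trim30d, yet still below all WT libraries. The log2 fold change was -1.33 (with SE 0.36 and edgeR's adjusted p = 0.126). It was -1.81 without KO replicate 2 (adjusted p = 0.0418), and DESeq2 gave an adjusted p = 0.00354 with all libraries. Leaving out any other library gave Trim30a no call, with log2 fold changes of -1.47 to -1.06 and adjusted p from 0.0814 to 0.380. The genes are close copies. Of the 50-base words of a 1904-base annotated Trim30d transcript, 14.8% occur in other TRIM members, 13.1% in Trim30a. Of those of Trim30a, 6.53% occur in Trim30d. A 50-base read from the stretches shared by Trim30a and Trim30d could come from either gene. The counted Trim30d row is longer, at 3758 bases, and its own share of such words was not computed.

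Trim34a (104244457 to 104262234, plus strand) was at 24.2, 24.0 and 18.8 CPM across KO replicates 1 to 3, against 34.4, 41.7 and 37.3 CPM across WT replicates 1 to 3. The log2 fold change was -0.75 (with SE 0.20 and edgeR's adjusted p = 0.117), with all KO libraries lower. A gene on the opposite strand overlaps 23.5% of its exon bases, and the sources used here do not say whether counting used strand. Its copy Trim34b was at 6.75 ± 1.52 CPM in the KO group and 8.94 ± 1.26 CPM in the WT group (SD, n = 3 per group), and its groups overlapped (log2 fold change -0.42, SE 0.37). The copies share 41.5% of the 50-base words of Trim34a and 59.0% of those of Trim34b.

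Trim12c (104338754 to 104353362, minus strand), whose product is linked to interferon and NF-kB signalling, was at 49.5, 55.8 and 49.4 CPM in KO replicates 1 to 3. It was at 77.8, 103 and 68.8 CPM across WT replicates 1 to 3, above all KO libraries. The log2 fold change was -0.68 (with SE 0.18 and edgeR's adjusted p = 0.117), and without WT replicate 3 it was -0.79 (adjusted p = 0.0489). Leaving out any other library gave Trim12c no call, with log2 fold changes of -0.73 to -0.49 and adjusted p from 0.153 to 0.394. Trim12a (104299894 to 104315466, minus strand) was at 45.7, 55.2 and 33.6 CPM in the KO group and at 59.4, 76.0 and 62.7 CPM in the WT group, in the same order of replicates. The groups of Trim12a did not overlap either, but its lowest WT and highest KO libraries were close, and the log2 fold change was -0.55 (with SE 0.21 and edgeR's adjusted p = 0.261). For these copies, 31.2% of the words of Trim12a and 32.7% of those of Trim12c occur in other annotated genes. Mouse Trim5, a symbol absent from the count table, holds 20.1% of the words of Trim12a and 24.5% of those of Trim12c. Trim12c holds 16.1% of the words of Trim12a, and Trim12a 5.8% of those of Trim12c.

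**Figure D2:**
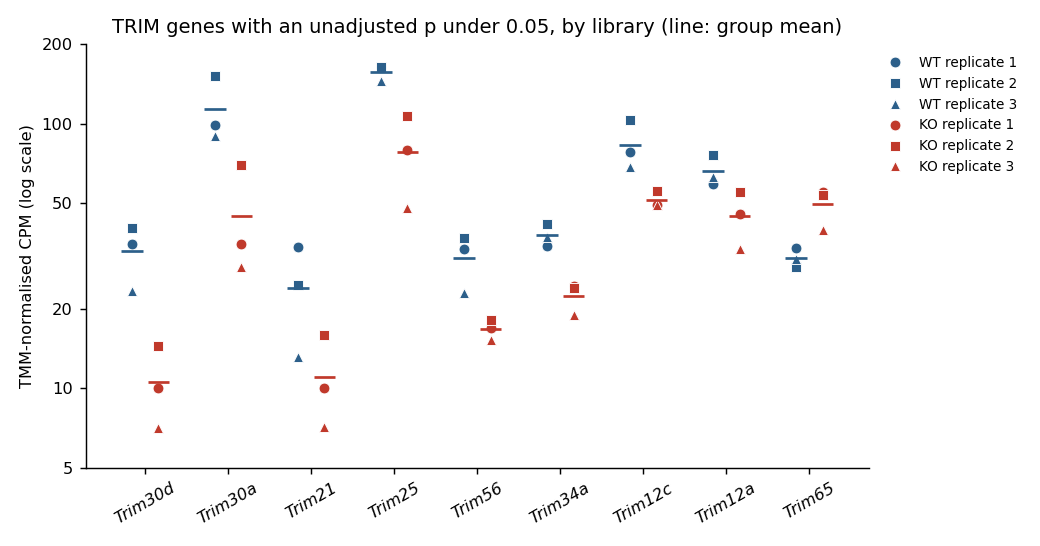
TMM-normalised CPM (y axis, log scale) in each library for the 9 TRIM genes with an unadjusted edgeR p under 0.05, ordered by log2 fold change; symbols mark replicates and lines the group means. KO points lie below WT points for Trim30d, Trim30a, Trim25, Trim56, Trim34a, Trim12c and Trim12a, overlap them for Trim21 and lie above them for Trim65.

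Promoters were searched for the core of the interferon-stimulated response element, a sequence bound by proteins of the IRF family. Windows are shown for the 6 members with a match that were lower in KO at an unadjusted p under 0.05. They were thus picked by the values of these data. Trim2 and Trim26 also held a match and are not shown. Whether IRF proteins act on any of these genes was not tested. Windows of 250 bases before to 50 bases after each start were taken from RefSeq (GRCm38.p6), where 50 of the 65 members have an entry. The motif searched was GAAANNGAAA, or TTTCNNTTTC on the opposite strand, and overlapping matches were allowed. It was found in 3.44% of all 32851 promoter windows of this length and in 9 of the 64 windows of TRIM members (14.1%). Capitals mark the motif, and each stretch runs 5′ to 3′ on the strand of the gene.
Trim30a (chr7:104465195-104465254, minus strand): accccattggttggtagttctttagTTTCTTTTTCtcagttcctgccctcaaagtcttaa
Trim30d (chr7:104507856-104507915, minus strand): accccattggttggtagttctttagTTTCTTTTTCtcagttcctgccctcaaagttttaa
Trim12c (chr7:104353350-104353403, minus strand): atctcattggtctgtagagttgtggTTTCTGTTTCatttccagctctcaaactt
Trim12a (chr7:104315466-104315495, minus strand): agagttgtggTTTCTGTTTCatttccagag
Trim34a (chr7:104244457-104244486, plus strand): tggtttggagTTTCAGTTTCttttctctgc
Trim21 (chr7:102565447-102565476, minus strand): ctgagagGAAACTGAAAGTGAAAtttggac
In the windows shown, the match begins 36 bases before the annotated start in Trim30a and 41 before it in Trim30d. Aligned on the motif without gaps, these promoters were identical at 276 of 295 bases. Trim12a and Trim12c were identical at 28 of 30 bases around theirs. Trim21 holds 2 overlapping matches just after its start. The other Trim30a window, not shown, has its match from position 3 after a different annotated start.

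In the edgeR fit of all 6 libraries without a covariate, all tested members with the motif had lower values in KO. None of them passed the adjusted test there. The 8 of them (Trim2, Trim12a, Trim12c, Trim21, Trim26, Trim30a, Trim30d and Trim34a) had log2 fold changes of -1.64 to -0.26, with a median of -0.93. For Trim2 the sign rested on WT replicate 1: its log2 fold change was -1.56, 0.16 without that library and 0.14 with lung epithelial share as covariate. That of Trim26 was 0.04 without WT replicate 2 and 0.0033 with limma-voom. Among 19 tested members whose windows held no match, 12 were lower and 7 higher (median -0.19). The remaining 10 had no promoter entry, and 8 of them were higher (median 0.25). A match describes letters and not binding, and the copies among the 8 genes with a match share both sequence and reads. Of all tested genes with a promoter entry, 359 of 9419 held a match. How many of those were lower in KO was not counted, so the 8 members have no comparison. Trim25 and Trim56 also had lower values with no match in their windows, which says nothing about the factors that act on them.

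**Figure D3:**
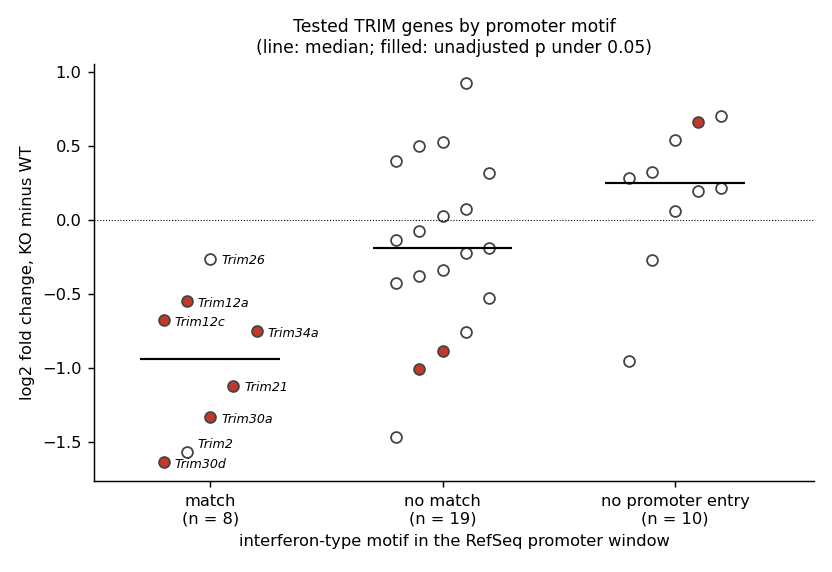
Log2 fold change of KO against WT (y axis) for tested TRIM genes, split by whether the RefSeq promoter window holds the motif; lines are medians and filled points have an unadjusted edgeR p under 0.05. The 8 genes with a match all lie below 0 with all 6 libraries (Trim2 not without WT replicate 1, Trim26 not without WT replicate 2), whereas the 19 without a match lie on both sides.

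Other innate signalling members split in both directions. Of 12 in this list, 10 were tested, 6 lower and 4 higher (median -0.17), and Trim31 and Trim38 had no reads. Trim25, the ligase that modifies the RNA sensor RIG-I and assists the antiviral protein ZAP, was at 79.5, 107 and 47.9 CPM in KO replicates 1 to 3. It was at 163, 164 and 145 CPM across WT replicates 1 to 3 and so above all KO libraries. Trim25 (chromosome 11, 88999376 to 89020293, plus strand) had a log2 fold change of -1.01 (with SE 0.26 and edgeR's adjusted p = 0.111; DESeq2 adjusted p = 0.00633). The spread was mainly among KO libraries, with SDs of 29.6 CPM in the KO group and 10.6 CPM in the WT group.

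Trim56, an interferon-inducible antiviral ligase (chromosome 5, 137105644 to 137116209, minus strand), was at 16.8, 18.2 and 15.2 CPM in the KO group and at 33.7, 36.95 and 22.9 CPM in the WT group, replicates 1 to 3 each. Its groups did not overlap, and WT replicate 3 was the nearest to KO. The log2 fold change was -0.88 (with SE 0.25 and edgeR's adjusted p = 0.131), and -1.07 without WT replicate 3 (adjusted p = 0.0429). Leaving out any other library gave Trim56 no call, with log2 fold changes of -0.94 to -0.73 and adjusted p from 0.209 to 0.433. Trim21, the cytosolic antibody receptor (chromosome 7, 102557921 to 102565486, minus strand), was at 10.03, 15.8 and 7.15 CPM in the KO group and at 34.1, 24.6 and 13.1 CPM in the WT group. WT replicate 3 lay below KO replicate 2, so the groups overlapped (log2 fold change -1.12, with SE 0.43 and edgeR's adjusted p = 0.258).

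Trim65, which modifies the RNA sensor MDA5, went the other way. It was at 55.2, 53.8 and 39.8 CPM across KO replicates 1 to 3, against 33.8, 28.7 and 30.7 CPM across WT replicates 1 to 3. All KO libraries were higher, but the test was not passed (log2 fold change 0.66, with SE 0.19 and edgeR's adjusted p = 0.141), nor under any of the 17 alternatives (adjusted p from 0.0671 to 0.492). Scaled to pan-T cell genes, which moved the median of all genes from -0.04 to -0.36, its log2 fold change was 0.36. Its neighbour Trim47 overlaps it at one end on chromosome 11, and 5.94% of the words of Trim65 occur in Trim47. For Trim47 itself the reads numbered 31, 4 and 19 in KO replicates 1 to 3, 114 in WT replicate 3 and 0 in the other WT libraries, so its level followed 1 library and its log2 fold change of -1.47 (SE 1.59) was 0.08 with limma-voom.

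Among abundant members of this list, Trim14, a mitochondrial adaptor in RIG-I signalling, was at 162, 173 and 181 CPM across KO replicates 1 to 3, against 184, 144 and 115 CPM across WT replicates 1 to 3. The groups overlapped (log2 fold change 0.22, SE 0.18), and scaled to pan-T cell genes the value was -0.05. Genes on the opposite strand overlap 38.0% of the exon bases of Trim14. Trim8, a regulator of cytokine and NF-kB signalling, was at 135 ± 2.87 CPM in the KO group and 112 ± 23.5 CPM in the WT group (SD, n = 3 per group), also overlapping (log2 fold change 0.29, SE 0.17). Trim13, Trim23, Trim26 and Trim27 had log2 fold changes of 0.03, -0.34, -0.26 and -0.07, none with an unadjusted p under 0.05. Without WT replicate 3 the value of Trim13 was 2.71.

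None of the 3 tested chromatin regulators passed the test, and their groups overlapped. Trim28, the corepressor recruited by KRAB zinc finger proteins, was at 56.96, 62.6 and 57.4 CPM across KO replicates 1 to 3, against 61.2, 45.8 and 34.5 CPM across WT replicates 1 to 3. WT replicate 1 was within the KO range and WT replicate 3 the lowest (log2 fold change 0.32, with SE 0.22 and edgeR's adjusted p = 0.537). Trim24, a partner of nuclear receptors, was at 13.7 ± 2.13 CPM in the KO group and 13.1 ± 1.86 CPM in the WT group (SD, n = 3 per group). Its log2 fold change of 0.08 (SE 0.29) became -0.22 scaled to pan-T cell genes, -0.05 without KO replicate 1 and -0.01 without WT replicate 3. Trim33, which limits SMAD4 in TGF-beta signalling, was at 10.8 ± 2.05 CPM in the KO group and 13.03 ± 1.79 CPM in the WT group (log2 fold change -0.27, SE 0.31), and at 0.01 with lung epithelial share as covariate. Trim66 had no reads.

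None of the tested members with NHL repeats or microtubule-binding roles passed the test, and several varied widely between libraries of 1 group. Trim32, a ligase known from muscle and innate immunity, was at 13.7, 23.0 and 23.1 CPM in KO replicates 1 to 3, and at 16.3, 12.3 and 3.41 CPM across WT replicates 1 to 3. The groups overlapped (log2 fold change 0.93, with SE 0.54 and edgeR's adjusted p = 0.454). For Trim32 the value was 1.59 without WT replicate 1, 0.45 without WT replicate 3 and 0.33 with erythroid share as covariate. Trim3 was at 10.5, 13.2 and 14.98 CPM in the KO group and 8.83, 7.53 and 9.93 CPM in the WT group, without overlap (log2 fold change 0.54, SE 0.32). Trim2, best known from neurons, was at 22.3 CPM in WT replicate 1 and at 2.05 to 4.72 CPM in the other 5 libraries. Lung epithelial markers were also highest in WT replicate 1, at 7.64% of its counts. The fit of Trim2 with their share as covariate is given above, and the cause of its level in that library was not tested. Trim36 was at 18.4, 13.5 and 18.6 CPM in the KO group and 8.83, 8.21 and 13.4 CPM in the WT group, just without overlap (log2 fold change 0.70, with SE 0.32 and edgeR's adjusted p = 0.333). Trim46, which organises microtubules at the axon start, was at 18.2 ± 5.56 CPM in the KO group and 19.9 ± 11.3 CPM in the WT group (SD, n = 3 per group), with a log2 fold change of -0.14 (SE 0.43). Trim71 and Trim9 had no reads.

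Compared per length by the mean of both groups, Trim35 came first in the family, at 56.3 CPM per kilobase in KO and 44.9 in WT. Trim14, Trim11, Trim8 and Trim12a came next. Their KO levels were 53.7, 48.9, 41.7 and 29.4 CPM per kilobase, and their WT levels 46.1, 42.7, 34.5 and 43.3, so that in WT alone Trim14 stood above Trim35, and Trim12a above Trim11 and Trim8. Over all 6 libraries the ranges of neighbours in this order overlapped. Trim35, a ligase studied in macrophages and tumour metabolism, was at 173, 225 and 224 CPM in KO replicates 1 to 3 and at 224, 147 and 125 CPM across the WT replicates (log2 fold change 0.32, SE 0.22). Trim11 was at 110 ± 4.31 CPM in the KO group and 96.3 ± 10.8 CPM in the WT group (SD, n = 3 per group). Its KO libraries were all slightly higher, with the lowest KO library at 106.14 and the highest WT library at 106.13 CPM. Its log2 fold change was 0.19 (SE 0.14), and -0.14 scaled to pan-T cell genes. The other 11 tested members outside these lists had log2 fold changes of -1.47 (Trim47) to 0.53 (Trim45), none with an unadjusted p under 0.05.

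Erythroid and muscle members were too low to test. For Trim10, a gene of red cell development, the reads numbered 0, 1 and 1 in KO replicates 1 to 3, 0 and 1 in WT replicates 1 and 2, and 108 in WT replicate 3. That library thus held 97.3% of the Trim10 reads, and its erythroid marker share was 14.5%. Trim58, which acts in erythroblasts, had 3 reads in all. Trim63 and Trim72, known from striated muscle, had 2 and 20 reads, and Trim54 and Trim55 had none. In total 28 members were not tested. Of these, 14 had 1 to 111 reads over the 6 libraries and 14 had none (Trim6, Trim9, Trim31, Trim38, Trim40, Trim42, Trim50, Trim54, Trim55, Trim60, Trim61, Trim66, Trim71 and Trim75). Several of the low members were highest in WT replicate 3: Trim7 had 26 of 51 reads there, Trim29 26 of 34 and Trim17 23 of 32.

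**Figure D4:**
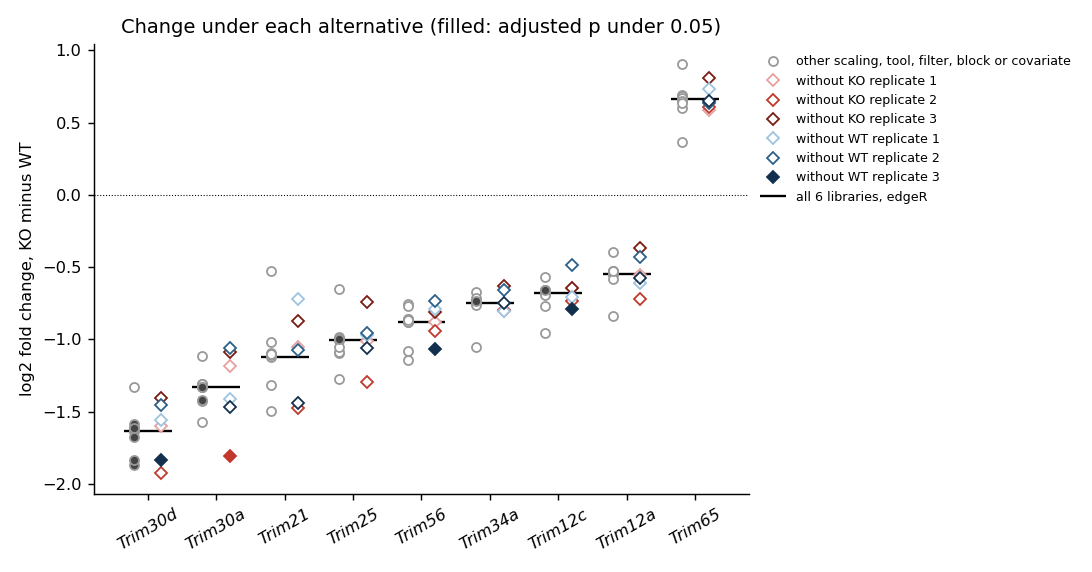
Log2 fold change of KO against WT (y axis) for the 9 TRIM genes with an unadjusted p under 0.05, under each alternative setting (circles) and without each library (diamonds); filled symbols have an adjusted p under 0.05 and black lines are the values with all 6 libraries. Every value keeps its side of 0, and Trim30d is filled most often.

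Genes that work with TRIM ligases gave calls where the family gave none. Of 18 genes of nucleic acid sensing, 5 were called lower and 0 higher in KO, against 0.983% and 0.755% of all tested genes. Called or not, 12 had negative and 6 positive log2 fold changes (median -0.13). Ifih1, which encodes the Trim65 substrate MDA5, fell from 110 ± 25.4 CPM in the WT group to 25.9 ± 10.99 CPM in the KO group (SD, n = 3 in each group), a log2 fold change of -2.08 with SE 0.31 and edgeR's adjusted p = 0.0246. Ddx58, which encodes the Trim25 substrate RIG-I, fell from 121 ± 28.6 to 45.0 ± 12.5 CPM (log2 fold change -1.43, with SE 0.25 and edgeR's adjusted p = 0.0341). Dhx58, a regulator of both sensors, fell by 2.14 (SE 0.39), the transcription factor gene Irf7 by 1.96 (SE 0.34) and Tmem173, which encodes STING, by 1.01 (SE 0.18) on the log2 scale. The adaptor gene Mavs had a log2 fold change of -0.06 (SE 0.22). When KO replicate 1, KO replicate 3 and WT replicates 1 and 2 were each left out, edgeR called none of these 18 genes, and 5, 5, 7 and 5 of them had an unadjusted p under 0.05. With counts summed over all rows of a symbol 1 was called, and 3 without the low-count filter.

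From the list of interferon receptors and their transcription factors, Stat2, which carries type I interferon signals to the nucleus, fell from 206 ± 31.9 to 84.6 ± 9.03 CPM (SD, n = 3 in each group), a log2 fold change of -1.28 with SE 0.16 and edgeR's adjusted p = 0.0131. The receptor genes Ifnar1 and Ifnar2 had log2 fold changes of 0.37 (SE 0.12) and 0.45 (SE 0.16) and were not called. Over the 12 tested genes of this list, 7 had negative and 5 positive log2 fold changes (median -0.38). Stat2 was not called without any 1 of the same 4 libraries.

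Among 18 tested E2 enzymes and partners of TRIM ligases, Ube2l6 alone was called, against 0.983% of all tested genes called lower. This E2 enzyme, used by Trim25 in joining ISG15 to proteins, fell from 188 ± 61.7 CPM in the WT group to 45.8 ± 14.4 CPM in the KO group (SD, n = 3 in each group), a log2 fold change of -2.05 with SE 0.29 and edgeR's adjusted p = 0.0213, and lost its call without any 1 of those 4 libraries. The list's median was -0.21. Among TRIM proteins that carry other names, Pml, which builds nuclear bodies, was at 126 ± 37.5 CPM in the KO group and 234 ± 72.4 CPM in the WT group and was not called (log2 fold change -0.89, with SE 0.28 and edgeR's adjusted p = 0.176). DESeq2 called Pml, and so did edgeR without WT replicate 3 and with the erythroid share as a covariate. With lung epithelial share as covariate, none of Ifih1, Ddx58, Dhx58, Irf7, Tmem173, Stat2, Ube2l6 and Pml was called, nor was any other of the 12720 genes. In that fit Ifih1, Ddx58, Stat2 and Ube2l6 had log2 fold changes of -1.86, -1.22, -1.12 and -2.08, and 6 of the 18 sensing genes had an unadjusted p under 0.05 (5 without the covariate). There the log2 fold changes of Trim30d, Trim30a, Trim25 and Trim21 were -1.33, -1.12, -0.65 and -0.53.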

How the data were processed

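The table the authors deposited holds unnormalised read counts for 6 libraries, 1 row per RefSeq transcript, with its length. The submitters' processing notes name TopHat2 2.2.1, Bowtie2 2.2.6, bcl2fastq and the mm10 build. The sources used here do not give the counting program, its strand setting or its handling of reads with several positions. The highest-count row was kept per symbol (31682 rows, 23992 symbols; TRIM members, 99 rows), since isoforms repeat shared reads. Genes were filtered with filterByExpr (minimum count 10, total 15), scaled by TMM and compared with edgeR 4.0.16 (glmQLFit, robust; glmQLFTest) in R 4.3.3. Calls are Benjamini-Hochberg adjusted p under 0.05 over 12720 genes, and each SE comes from the F statistic (size of the log2 value over root F). CPM are TMM-normalised. limma 3.58.1 and DESeq2 1.42.0 were alternatives. In 5 simulations with 200 of the 12720 genes changed, 22.0% of 2-fold and 60.2% of 4-fold changes were recovered, and 8.02% of calls were unchanged genes.

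Members and lists were chosen with earlier results of these data known. Genes named were members with an unadjusted p under 0.05, the 2 highest of each role, all cluster, chromatin and erythroid members with a mean of at least 1 CPM in either group, called genes of the other lists or the 1 of smallest p, and Crlf2. Other names give ranges, reads or single values and were chosen after values were seen. No label says that replicates come from different animals. The p-values then reflect the spread of these libraries alone, which may be technical. Positions are from GENCODE M21 (GRCm38), and 50-base words were compared between its transcripts. Some of these transcripts differ in length from the counted row. 1 gene of the other lists is not reported here.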

Additional observations from a re-analysis of the deposited data

How the results depend on the processing

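Over 17 alternatives, the 21 tested members picked by the naming rule above gave 357 recomputed log2 fold changes. Of these, 333 kept direction and side of the threshold, 15 were newly called in the same direction and 9 changed sign. None of the 9 was a called value. Sign changes were Trim11 (-0.14), Trim14 (-0.048) and Trim24 (-0.22) scaled to pan-T cell genes, Trim24 without KO replicate 1 or WT replicate 3 (-0.051 and -0.01, over a range of -0.051 to 0.19 with 1 library left out), Trim33 with lung epithelial share as covariate (0.0053), and Trim46 with limma-voom (0.14) and without KO replicate 1 or WT replicate 1 (0.04 and 0.48, over a range of -0.49 to 0.48). Trim2, Trim26 and Trim47 lay outside these 21 and also changed sign under some settings, as given above. The median of all tested members was 0.0090 with limma-voom and -0.50 scaled to pan-T cell genes. Members called lower numbered 5 with DESeq2, 1 each with limma-voom, pan-T scaling, no low-count filter and the erythroid share as a covariate, and 0 to 3 when 1 library was left out (1 without KO replicate 2, 3 without WT replicate 3). Of 12720 genes, 496 were called lower with DESeq2, 176 with limma-voom, 170 with pan-T scaling and 248 with the erythroid covariate. The count was 122 of 17187 with no low-count filter, 81 of 13065 without KO replicate 2 and 276 of 12932 without WT replicate 3. No alternative called a member higher. Calls over all genes were 221, against 863 with DESeq2, 134 with rows summed, 0 with the lung epithelial covariate (1131 at an unadjusted p under 0.05), 470 with the erythroid covariate, and 4 to 518 when 1 library was left out. The cause was not tested. Same-numbered KO and WT libraries did not deviate together (r of 0.08, -0.15 and -0.04 across genes), and not every sample correlated best with its own number. With the replicate block 123 of 12720 genes were called, 91 of them lower, with Trim30a and Trim30d among these (2 members lower). Of the 5 called sensing genes, Ddx58 and Dhx58 were not called with the block. Depth limits members under 2.05 CPM in WT replicate 2.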

Other observations

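Partners of the Trim28 corepressor gave no call. Of 12 tested genes of KRAB-directed silencing, edgeR, DESeq2 and limma-voom called 0, 1 had an unadjusted p under 0.05 in edgeR, and the median log2 fold change was -0.19. Over all tested genes edgeR called 1.74%, and 15.9% had an unadjusted p under 0.05. Uhrf1, which couples DNA methylation to replication, had the smallest p, at 57.8 ± 9.48 CPM in the KO group and 88.3 ± 12.3 CPM in the WT group (SD, n = 3 in each group), a log2 fold change of -0.60 with SE 0.18 and edgeR's adjusted p = 0.146. The heterochromatin protein gene Cbx1 was at 76.6 ± 6.47 CPM in the KO group and 64.9 ± 6.403 CPM in the WT group, and the methyltransferase gene Setdb1 at 45.7 ± 4.57 and 42.5 ± 3.57 CPM.

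Several rows of the deposited table can stand for 1 TRIM gene, as they do for 21 members. The rows of Trim30d had 103, 180 and 136 reads in KO replicates 1 to 3 for the longer transcript and 73, 123 and 96 for the shorter, and 263, 59 and 247 against 166, 45 and 175 in WT replicates 1 to 3. Both rows were thus lower in KO relative to depth in these libraries.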
